A study of Mus musculus with 7 samples.

Results

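The family of miR-15, miR-16 and miR-195 of the mouse was followed in the hippocampus as its 6 guide products: mmu-miR-15a, mmu-miR-15b, mmu-miR-16, mmu-miR-195, mmu-miR-322 and mmu-miR-497. A guide product is the arm of a miRNA hairpin that is loaded into the silencing complex and accumulates, and the opposite arm, marked with a star, is mostly degraded. The members were taken by name, and all 6 were found among 756 mature sequences with a read. The data are 7 small RNA libraries, each of hippocampi pooled from adult male mice of C57BL/6 background aged 3 to 5 months. By the labels, library 1 was from non-trained wildtype controls, library 2 from non-trained NIPP1* mice, libraries 3, 4 and 5 from trained wildtype controls and libraries 6 and 7 from trained NIPP1* mice. NIPP1* mice carry a fragment of a nuclear inhibitor of protein phosphatase 1 (PP1), fused to EGFP under a tetO promoter, and a reverse tetracycline transactivator driven by CaMKIIalpha, so that the fragment is made in forebrain neurons when doxycycline is in the diet. Controls were littermates. Trained mice explored objects in an object recognition task, and non-trained mice went through the same steps with no objects. The paper reports that NIPP1* mice were fed doxycycline to switch the fragment on. It also states that the sequenced hippocampi were collected shortly after training ended, so later times were not sampled. Its supplement describes a memory test of the sequenced animals soon after training. The comparisons ask whether the family's levels moved with the inhibition of nuclear PP1, with training, or with both.

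Members of this family act on messenger RNAs through a common seed, the stretch near the 5′ end that pairs with the target. In many tissues they are known for holding back the cell cycle, with cyclins and the survival factor Bcl2 among their targets, and mmu-miR-15a and mmu-miR-16 are known as a pair whose human counterpart is often deleted in chronic lymphocytic leukaemia. mmu-miR-195 is known to rise in the heart after birth, and mmu-miR-322 is the mouse form of human miR-424. In brain tissue the family is expressed by many cell types.

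The mature sequences of RefSeq are printed because the seed is what places these miRNAs in one family and the rest is what tells their reads apart. Capitals mark the seed, bases 2 to 8.
mmu-miR-15a: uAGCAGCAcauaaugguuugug
mmu-miR-15b: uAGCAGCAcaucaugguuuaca
mmu-miR-16: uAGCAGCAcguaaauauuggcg
mmu-miR-195: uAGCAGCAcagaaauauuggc
mmu-miR-497: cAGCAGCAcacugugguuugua
mmu-miR-322: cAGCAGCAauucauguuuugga

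All 6 had the seed AGCAGCA, and the bases shared by every member without a gap ended with it, at base 8. Over the 21 bases that all members have, 9 positions held 1 base throughout. The first base was U in mmu-miR-15a, mmu-miR-15b, mmu-miR-16 and mmu-miR-195, and C in mmu-miR-322 and mmu-miR-497. The closest pair was mmu-miR-16 and mmu-miR-195, with 2 differences in 21 bases, G10A and U11G, counted from the 5′ end with the base of mmu-miR-16 first. mmu-miR-15a and mmu-miR-15b differed at 4 of 22 bases, A12C, G20A, U21C and G22A. The farthest pair was mmu-miR-16 and mmu-miR-497, with 11 differences in 22 bases. The closest pair thus lies on different chromosomes, while mmu-miR-195 and mmu-miR-497, made from neighbouring hairpins, differed at 9 of 21 bases.

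The 7 mature loci fell into 4 places in the genome, given in NCBI37/mm9, the build of the deposited loci, with GENCODE vM1 genes. On chromosome 14, minus strand, mmu-miR-15a lay at chr14:62250912-62250933 and a copy of mmu-miR-16 at chr14:62250773-62250794, both in an intron of Dleu2, a long noncoding RNA gene of the same strand. On chromosome 3, plus strand, mmu-miR-15b lay at chr3:68813697-68813718 and the second copy of mmu-miR-16 at chr3:68813840-68813861, both in an intron of Smc4, which encodes a condensin subunit. mmu-miR-497 and mmu-miR-195 lay on the plus strand of chromosome 11, at chr11:70048232-70048253 and chr11:70048564-70048584, and mmu-miR-322 on the minus strand of the X chromosome, at chrX:50407483-50407504. For these 3 the annotation held no gene other than their own hairpins.

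Each locus was deposited as a percent of all miRNA reads in its library, written here as reads per 1000000 miRNA reads (RPM). The libraries held between 7285261 and 10017770 miRNA reads as worked out from the size of a single read among low values, so that 1 read was worth between 0.0998 and 0.137 RPM. Amplified reads are not independent molecules, and counting intervals here cover counting error only. The labels do not say that the libraries of a group were separate sets of mice, so p-values measure the spread between libraries. In a bulk sample, fewer cells of a type and less of a miRNA per cell cannot be told apart. The group means in the authors' own tables assign the trained libraries the other way round from the labels: libraries 6 and 7 rebuilt the tables' trained control means to within 0.021% (root mean square relative error), and libraries 3, 4 and 5 to within 18.3%. Groups here follow the labels, and each direction between trained genotypes below turns over under the grouping of the tables. Neither assignment was checked against the transgene, which small RNA does not show. The 5 miRNAs listed as markers of brain neurons (mmu-miR-9, mmu-miR-124, mmu-miR-128, mmu-miR-132 and mmu-miR-138) summed to between 187293 and 214677 RPM. Most of that sum was mmu-miR-9 (107500 to 149800 RPM) and mmu-miR-128 (53960 to 71940 RPM), while mmu-miR-132 stood at 257 to 367 RPM.

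The family summed to between 5536 RPM (library 4) and 6812 RPM (library 6), with 6228 ± 383 RPM over all 7 libraries (SD, n = 7). mmu-miR-195 made up between 48.2% and 52.0% of this sum, mmu-miR-16 between 24.4% and 28.9%, and mmu-miR-497 between 15.4% and 18.5%. The other members were minor products, with 2.15% to 2.68% for mmu-miR-15a, 1.98% to 2.64% for mmu-miR-322 and 0.796% to 1.06% for mmu-miR-15b. The order of mmu-miR-195 over mmu-miR-16 over mmu-miR-497 was the same in all 7 libraries, and so was mmu-miR-15b at the bottom. mmu-miR-15a and mmu-miR-322 could not be ordered: their means of 150 and 147 RPM lay within the SD of each, and each was the higher in some of the libraries. By mean level the members ranked 44 (mmu-miR-195), 59 (mmu-miR-16), 65 (mmu-miR-497), 166 (mmu-miR-15a), 167 (mmu-miR-322) and 217 (mmu-miR-15b) among the 756 sequences. Levels of different miRNAs carry ligation and length effects, so the order is one of reads.

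**Figure D1:**
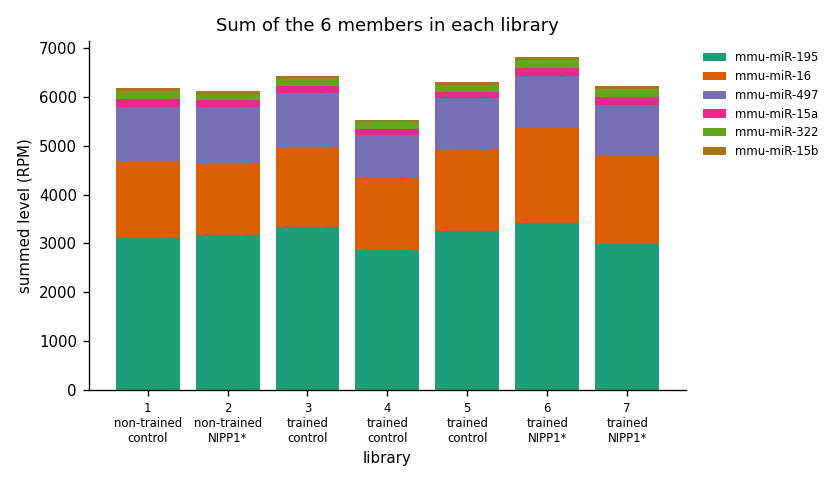
Summed level of the 6 members in each library, in RPM on the vertical axis, with libraries 1 to 7 on the horizontal axis and 1 colour per member. The sums lie between 5536 and 6812 RPM, and mmu-miR-195, mmu-miR-16 and mmu-miR-497 fill most of each bar.

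mmu-miR-15a, the first hairpin of the Dleu2 pair, stood at 164 RPM in library 1 (non-trained control) and 145 RPM in library 2 (non-trained NIPP1*). In the trained control libraries it stood at 152, 124 and 135 RPM, and in the trained NIPP1* libraries at 164 and 167 RPM. The trained NIPP1* libraries thus lay above all trained control libraries, and library 4 was the lowest of the series. The trained group means were 137 ± 13.8 RPM (SD, n = 3) in controls and 166 ± 1.70 RPM (SD, n = 2) in NIPP1*.

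mmu-miR-16, made from both the Dleu2 and the Smc4 pair, had 1559 RPM in the non-trained control and 1491 RPM in non-trained NIPP1*. Trained control libraries had 1637, 1459 and 1683 RPM, and trained NIPP1* libraries had 1951 and 1798 RPM. Libraries 6 and 7 were the highest of all 7 in RPM, and the trained groups did not overlap on that scale, with means of 1593 ± 118 RPM (SD, n = 3) and 1874 ± 108 RPM (SD, n = 2). These values are the mean of the 2 copies, since each locus carries nearly all reads of the shared sequence. The copies are printed from mm9 with 4 bases on either side to show where they begin to differ, with the mature miRNA in capitals.
mmu-miR-16, chromosome 14: gcctTAGCAGCACGTAAATATTGGCGttaa
mmu-miR-16, chromosome 3: actcTAGCAGCACGTAAATATTGGCGtagt
The chromosome 3 locus was the higher in every library, by between 26 and 32 RPM, a small part of a level of about 1459 to 1951 RPM. How much each copy makes cannot be told from these values.

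mmu-miR-15b, the partner of the second copy of mmu-miR-16 in Smc4, was the least abundant member. Its level was 54.0 RPM without training in controls and 57.1 RPM without training in NIPP1*. The trained control libraries gave 61.3, 55.4 and 55.6 RPM and the trained NIPP1* libraries 54.2 and 66.2 RPM. The trained groups overlapped, since libraries 6 and 7 were below and above every trained control library. No library had fewer than 395 reads of it.

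mmu-miR-195 was the most abundant member, with 3120 RPM in the non-trained control and 3166 RPM in non-trained NIPP1*. Levels of 3345, 2872 and 3257 RPM were found in the trained control libraries, and of 3417 and 2999 RPM in the trained NIPP1* libraries. The groups overlapped, and the highest library was only 1.19 times the lowest. mmu-miR-497, from the neighbouring hairpin, was at 1121 RPM in library 1, 1134 RPM in library 2, 1090, 897 and 1028 RPM in trained controls, and 1052 and 1038 RPM in trained NIPP1*. Both non-trained libraries were above all 5 trained ones, as in 8.19% of all miRNAs tested, but not once the libraries were scaled by TMM or DESeq2 size factors. The trained groups overlapped. The ratio of mmu-miR-195 to mmu-miR-497 stayed between 2.78 and 3.25.

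mmu-miR-322, the X-linked member, varied the most. It was at 163 RPM in library 1, the non-trained control, and at 121 RPM in library 2, non-trained NIPP1*, which was the lowest of the series. Trained control libraries had 142, 128 and 140 RPM and trained NIPP1* libraries had 174 and 160 RPM. The trained groups did not overlap, with means of 137 ± 7.66 RPM (SD, n = 3) and 167 ± 9.55 RPM (SD, n = 2).

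**Figure D2:**
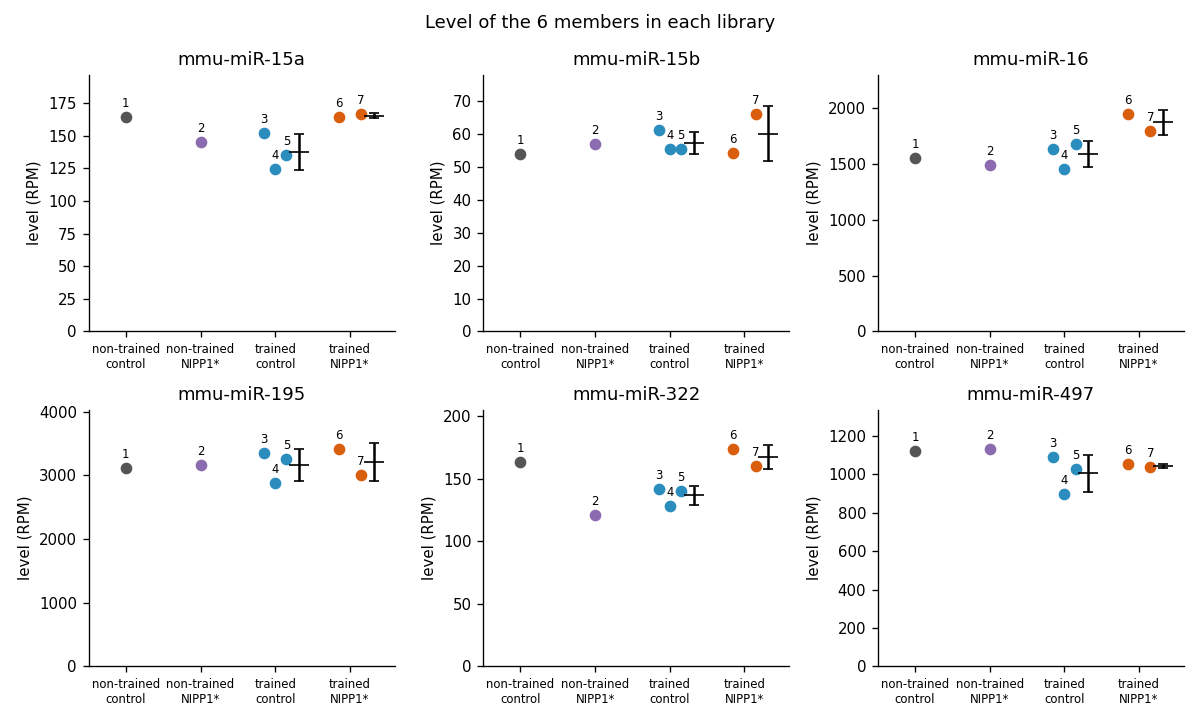
Level of each member (vertical axis, RPM, from 0) by group (horizontal axis), with 1 numbered point per library and, for the trained groups, the mean and SD as a bar beside the points. mmu-miR-15a, mmu-miR-16 and mmu-miR-322 have both trained NIPP1* libraries above the 3 trained control libraries in RPM (mmu-miR-16 not with TMM or DESeq2 scaling), and mmu-miR-15b, mmu-miR-195 and mmu-miR-497 do not.

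Most members varied little over the 7 libraries. The coefficient of variation was 6.04% for mmu-miR-195, 7.54% for mmu-miR-497, 7.78% for mmu-miR-15b, 10.6% for mmu-miR-16, 10.8% for mmu-miR-15a and 13.3% for mmu-miR-322. For the 319 miRNAs that averaged at least 100 reads over the 7 libraries the median was 13.1%, and mmu-miR-322 was the single member above it. A lower coefficient than that of mmu-miR-195 was found in 4.70% of these miRNAs.

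No member passed the test of trained NIPP1* against trained control mice. limma was fitted to log2(RPM + 0.5) of every library together, for the 476 miRNAs whose reads averaged at least 10, with Benjamini-Hochberg adjustment. By this test 0 of 6 members were called, where 0% of all miRNAs tested were called at an adjusted p under 0.05. At an unadjusted p under 0.05, limma gave 34 of the 476 miRNAs and 0 members. Without library 3, the first trained control, it gave 113, with mmu-miR-15a and mmu-miR-322 among them (adjusted p of 0.155 and 0.199), and between 10 and 17 without any other single trained library, so the count rests on which trained libraries enter. At an adjusted p under 0.05, edgeR's quasi-likelihood test on recovered reads called 0 miRNAs and DESeq2's Wald test called 1, not a member. The log2 fold change on this scale was 0.29 for mmu-miR-322 (SE 0.14, 95% interval -0.04 to 0.62), 0.27 for mmu-miR-15a (SE 0.15, interval -0.08 to 0.63) and 0.24 for mmu-miR-16 (SE 0.12, interval -0.05 to 0.52), each with an adjusted p of 0.659. For mmu-miR-497, mmu-miR-15b and mmu-miR-195 it was 0.06, 0.06 and 0.02, with adjusted p between 0.919 and 0.973, and below 0 for all 3 under TMM scaling. The 6 values had a median of 0.15, beside 0.04 over all miRNAs tested. TMM scaling brought the median over all miRNAs to -0.03 and the members to between -0.05 and 0.22. In 3 of the 6, both trained NIPP1* libraries were above every trained control library, which 18.7% of all miRNAs tested did, and 0 of the 6 lay below in the same way, which 7.77% did. With TMM scaling these were 2 of 6 members, mmu-miR-15a and mmu-miR-322, beside 12.4% of all miRNAs tested, since mmu-miR-16 then overlapped; DESeq2 size factors gave the same 2 members beside 15.1%. Under the grouping of the authors' tables every one of these fold changes has the opposite sign and the same size.

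Ratios between members do not depend on the scaling of the libraries, and in 8 of the 15 pairs they did not overlap between the trained groups, beside 24.3% of all pairs of miRNAs tested. Pairs share members and are not independent. The ratio of mmu-miR-15a to mmu-miR-15b, for example, lay between 2.24 and 2.48 in trained controls and between 2.52 and 3.03 in trained NIPP1*. For mmu-miR-195 and mmu-miR-16, the closest pair by sequence, the ratio was chosen after its values were seen. It was 2.04, 1.97 and 1.94 in trained controls and 1.75 and 1.67 in trained NIPP1*, while library 1 had 2.002 and library 2 had 2.12. Libraries 6 and 7 thus had the lowest ratios of the series. The difference of the means was -0.27, NIPP1* minus control, with p = 0.2 in a two-sided exact permutation test. This p doubles the smaller tail, and 0.2 is the smallest that such a test allows for 3 against 2 libraries. The family's sum was 6087 ± 482 RPM (SD, n = 3) in trained controls and 6520 ± 413 RPM (SD, n = 2) in trained NIPP1*, with overlapping libraries and p = 0.6 in the same exact test.

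Marker lists were compared between the same libraries in RPM only, and their counts were not repeated with TMM or DESeq2 scaling. The share of all miRNAs tested above every trained control library in both trained NIPP1* libraries was 18.7% in RPM and 12.4% with TMM scaling. Of the red blood cell list (mmu-miR-451, mmu-miR-144, mmu-miR-144* and mmu-miR-486), 3 of 4 were found, all 3 lay above every trained control library in both trained NIPP1* libraries, and their summed level was 66.2 to 138 RPM in trained controls and 145 to 272 RPM in trained NIPP1*. mmu-miR-16 and mmu-miR-15a are also known from red blood cells. Of 4 oligodendrocyte markers (both arms of mmu-miR-219 and mmu-miR-338), 3 did so, and the summed level was 3263 to 3704 RPM in trained controls and 4670 to 5060 RPM in trained NIPP1*. None of the 4 blood vessel markers (both arms of mmu-miR-126, mmu-miR-143 and mmu-miR-145) did so, with 15486 to 18452 RPM against 16283 to 17204 RPM. Among the 5 leukocyte and microglia markers (both arms of mmu-miR-142, mmu-miR-223, mmu-miR-150 and mmu-miR-155) it was 1, and the summed level was 894 to 906 RPM against 872 to 997 RPM. In that list mmu-miR-223 lay below every trained control library, at 47.6 to 48.3 RPM against 50.8 to 54.6 RPM. Among the 7 choroid plexus markers (mmu-miR-204, mmu-miR-211, mmu-miR-200a, mmu-miR-200b, mmu-miR-200c, mmu-miR-141 and mmu-miR-429) 0 lay above every trained control library, with sums of 620 to 1266 RPM against 597 to 1228 RPM. mmu-miR-211 was near 0, at no more than 0.27 RPM in any library. Of the 5 brain neuron markers, mmu-miR-124 and mmu-miR-138 lay above every trained control library and mmu-miR-128 below, and the sum was 187293 to 211771 RPM in trained controls and 198400 to 198424 RPM in trained NIPP1*. The part of these cells in the levels of the family was not tested.

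**Figure D3:**
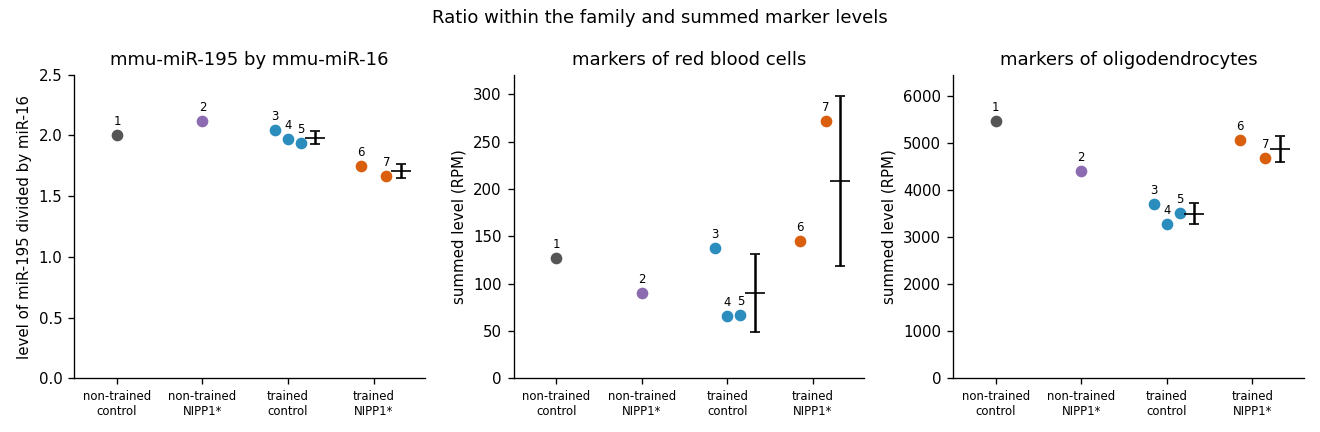
Left, the level of mmu-miR-195 divided by that of mmu-miR-16; middle and right, the summed level in RPM of the red blood cell and oligodendrocyte markers, by group, with 1 numbered point per library and the mean and SD of the trained groups beside them. Libraries 6 and 7 have the lowest ratios, and both marker sums lie higher in them than in libraries 3, 4 and 5.

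Training in control mice was compared between 3 trained libraries and the 1 non-trained control library, whose spread was assumed to be that of the trained libraries. No member was called by limma, with 0% of all miRNAs tested called. At an unadjusted p under 0.05, limma gave 28 of 476 miRNAs and 0 members, 108 without library 3 and between 14 and 16 without any other single trained library. At an adjusted p under 0.05, edgeR called 0 miRNAs and DESeq2 called 1. The log2 fold change was -0.26 for mmu-miR-15a (interval -0.71 to 0.18), with an adjusted p of 0.666, and -0.26 for mmu-miR-322 (interval -0.68 to 0.17), with the same adjusted p. It was -0.16 for mmu-miR-497, 0.03 for mmu-miR-16, 0.01 for mmu-miR-195 and 0.09 for mmu-miR-15b. TMM scaling moved all 6 upward, to -0.17 for mmu-miR-15a, -0.16 for mmu-miR-322, -0.07 for mmu-miR-497, 0.12 for mmu-miR-16, 0.11 for mmu-miR-195 and 0.18 for mmu-miR-15b, and without library 4 mmu-miR-497 was at -0.08. The values for mmu-miR-15a and mmu-miR-322 turned over with the trained libraries exchanged between the genotypes, when training in controls gave 0.0096 for mmu-miR-15a, 0.03 for mmu-miR-322 and 0.26 for mmu-miR-16. The median of the members was -0.07, beside -0.09 over all miRNAs tested.

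Training in NIPP1* mice was compared between libraries 6 and 7 and the 1 non-trained NIPP1* library. Here too limma called 0 members and 0% of all miRNAs tested. After adjustment edgeR called 0 miRNAs and DESeq2 2. At an unadjusted p under 0.05 limma gave 21 miRNAs, 1 of them a member, 37 without library 3, and 10 and 14 without library 6 and library 7. That member was mmu-miR-322, with a log2 fold change of 0.46 (SE 0.19, interval 0.02 to 0.91) and an adjusted p of 0.973. mmu-miR-16 was at 0.33 (interval -0.05 to 0.71) and mmu-miR-15a at 0.19 (interval -0.29 to 0.66), with the same adjusted p. mmu-miR-15b, mmu-miR-195 and mmu-miR-497 were at 0.07, 0.02 and -0.12. With libraries 3 to 5 and 6 and 7 exchanged between the genotypes, training in NIPP1* mice gave 0.17 for mmu-miR-322, 0.09 for mmu-miR-16 and -0.09 for mmu-miR-15a. The median was 0.13 for the members and -0.03 for all miRNAs tested.

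The effect of training was set against the genotype with an interaction term, which uses the same libraries as the comparisons above. limma called 0 members and 0% of all miRNAs tested, and at an unadjusted p under 0.05 it gave 37 miRNAs, 1 of them a member. Without library 3 it gave 85, and between 21 and 28 without any other single trained library. After adjustment edgeR called 0 miRNAs and DESeq2 called 2. The difference of the training effect, NIPP1* minus control, was 0.72 on the log2 scale for mmu-miR-322 (SE 0.26, interval 0.11 to 1.33), with an adjusted p of 0.577. It was 0.45 for mmu-miR-15a (interval -0.20 to 1.10), with an adjusted p of 0.746, and 0.30 for mmu-miR-16, with an adjusted p of 0.801. For mmu-miR-15b, mmu-miR-195 and mmu-miR-497 it lay between -0.02 and 0.04. In mmu-miR-15a and mmu-miR-322, every trained control library was below the non-trained control and every trained NIPP1* library above the non-trained NIPP1* library, a pattern that 13.4% of all miRNAs tested had and that both members kept with TMM and DESeq2 scaling. The summed oligodendrocyte markers moved in the same way, from 5458 RPM in library 1 to between 3263 and 3704 RPM in trained controls. The sum went from 4397 RPM in library 2 to between 4670 and 5060 RPM in trained NIPP1*. Most of it was mmu-miR-338-3p, and the pattern was missing in mmu-miR-219-3p and mmu-miR-338-5p. The part of these markers in the values of mmu-miR-15a and mmu-miR-322 was not tested. The value for mmu-miR-322 rests on the non-trained libraries, 1 a group, and with libraries 3 to 5 and 6 and 7 exchanged between the genotypes it was 0.14, while mmu-miR-15a turned to -0.098 and mmu-miR-16 to -0.17.

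Pooling the genotypes gives a comparison that does not depend on how the trained libraries are assigned, 5 trained against 2 non-trained. limma called 0 members and 0% of all miRNAs tested, with 26 miRNAs and 0 members at an unadjusted p under 0.05. Without library 3 it gave 37 miRNAs, and between 16 and 21 without any other single trained library. By adjusted p, edgeR called 0 and DESeq2 1. The log2 fold changes of the members ran from -0.15 for mmu-miR-497 (interval -0.39 to 0.10) to 0.16 for mmu-miR-16 (interval -0.12 to 0.43), with adjusted p between 0.830 and 0.983. mmu-miR-195 had the narrowest interval, 0.01 with -0.22 to 0.24. The members had a median of 0.04, beside -0.06 over all miRNAs tested. With TMM scaling, which brought the median of all miRNAs to 0.0085, mmu-miR-497 was at -0.08 and mmu-miR-16 at 0.22.

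**Figure D4:**
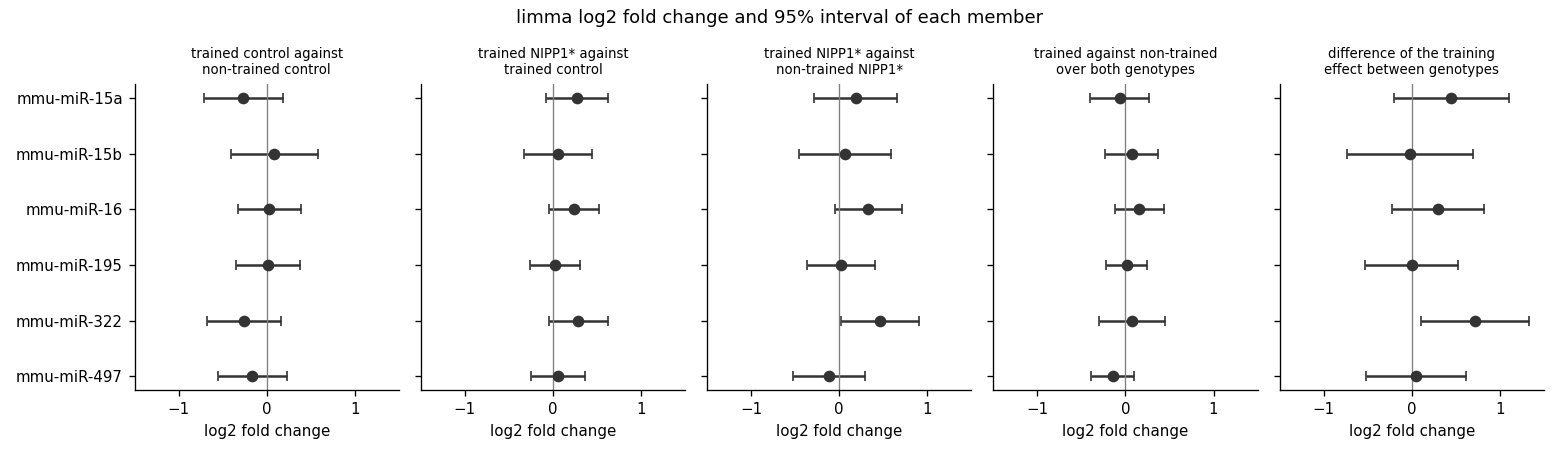
limma log2 fold change of each member (points) with its 95% interval (bars) in the 5 tested comparisons, 1 panel each, with a line at 0; the fifth panel is the difference of the training effect, NIPP1* minus control. The intervals of mmu-miR-322 for training in NIPP1* mice and for the difference between genotypes lie above 0, and those of all other members include 0, with 0 members called after adjustment.

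Between the non-trained libraries there was 1 library a group, so these differences have no replicate check and no p-value. The log2 ratio of NIPP1* to control was -0.43 for mmu-miR-322, from 977 and 1450 reads (exact binomial 95% interval -0.55 to -0.31). It was -0.18 for mmu-miR-15a (interval -0.29 to -0.07) and -0.06 for mmu-miR-16 (interval -0.10 to -0.03). These 3 intervals lay below 0, as did those of 28.3% of the 322 miRNAs averaging at least 100 reads over these 2 libraries, and 59.6% of the 322 had an interval that did not include 0. For mmu-miR-15b, mmu-miR-195 and mmu-miR-497 the ratios were 0.08, 0.02 and 0.02, with intervals that include 0. No member reached a log2 ratio of 1 in size, which 0.932% of these 322 miRNAs did.

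Opposite arms of the family's hairpins were scarce. Over the 7 libraries, mmu-miR-497* had 1069 reads beside 61652 of mmu-miR-497, and mmu-miR-322* had 506 beside 8630 of mmu-miR-322, or 57.7 and 17.1 guide reads per opposite-arm read. The share of the opposite arm was 5.54% for mmu-miR-322* and 1.70% for mmu-miR-497*. It was 0.759% for mmu-miR-15b* (26 reads), 0.0904% for mmu-miR-15a* (8 reads) and 0.0756% for mmu-miR-195* (140 reads). The copies of mmu-miR-16 have different opposite arms, which tell the hairpins apart: mmu-miR-16-1* of chromosome 14 had 215 reads, between 17 and 46 a library, and mmu-miR-16-2* of chromosome 3 had 7, between 0 and 3 a library. mmu-miR-15a* had no read in the 3 trained control libraries and between 1 and 3 in each of the others. Of the 7 opposite arms found, 4 passed the minimum of reads, and limma called 0 of them in any comparison. Between trained NIPP1* and trained control these 4 had log2 fold changes between -0.09 and 0.37, with a median of 0.14, beside 0.04 over all miRNAs tested.

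**Figure D5:**
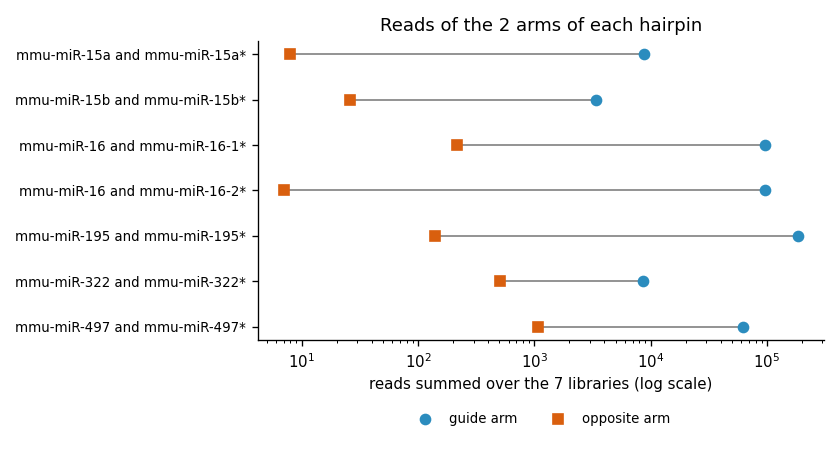
Reads summed over the 7 libraries (horizontal axis, log scale) of the guide arm (circles) and the opposite arm (squares) of each hairpin. The mmu-miR-16 guide is drawn for both of its hairpins since its reads are shared; mmu-miR-322 and mmu-miR-497 have the nearest pairs, at 17.1 and 57.7 guide reads per opposite-arm read.

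mmu-miR-322 is made with other miRNAs of the X chromosome, mmu-miR-503, mmu-miR-351, mmu-miR-542, mmu-miR-450a and mmu-miR-450b. mmu-miR-503 also belongs to the AGCAGC group described next. Each of their 9 products found was far lower than mmu-miR-322, at most 44.3 RPM in a library, for mmu-miR-351. mmu-miR-503, whose gene is the nearest, had 1.89 ± 0.498 RPM (SD, n = 7), and the level of mmu-miR-322 was between 55.9 and 97.2 times its level. Of the 9 products, 6 passed the minimum of reads, and 0 were called by limma in any comparison. Their log2 fold changes between trained NIPP1* and trained control lay between -0.05 and 0.39, with a median of 0.15, beside 0.29 for mmu-miR-322. In training of NIPP1* mice 3 were higher and 3 lower, from -0.09 to 0.68 for mmu-miR-503*, with a median of 0.00415, beside 0.46 for mmu-miR-322.

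Other miRNAs share the core AGCAGC of the seed, and the 3 that a search from base 1 or 2 found are printed for the shift of that core, marked in capitals.
mmu-miR-103: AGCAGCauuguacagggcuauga
mmu-miR-107: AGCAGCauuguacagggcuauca
mmu-miR-503: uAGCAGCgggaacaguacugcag
In mmu-miR-103 and mmu-miR-107 the core began at base 1, and in mmu-miR-503 at base 2 as in the family. mmu-miR-103 alone was as abundant as mmu-miR-195, at 3231 ± 435 RPM (SD, n = 7) against 3168 ± 191 RPM, a difference within the spread of the libraries. mmu-miR-107 was at 224 ± 23.7 RPM (SD, n = 7). mmu-miR-103 and mmu-miR-107 differ at a single base near the 3′ end, so the split of reads between them is uncertain. limma called 0 of the 3 in any comparison. Between trained NIPP1* and trained control their log2 fold changes lay between -0.23 and 0.14, with a median of -0.11, beside 0.15 for the members and 0.04 over all miRNAs tested.

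The patterns of the members across the 7 libraries were compared by Pearson's r of log2(RPM + 0.5). This r, a description over 7 libraries that share groups and scaling, was 0.62 for mmu-miR-15a and mmu-miR-16, 0.58 for mmu-miR-195 and mmu-miR-497, and 0.21 for mmu-miR-15b and mmu-miR-16. The highest values among members were those of mmu-miR-322 with mmu-miR-16, at 0.79, and with mmu-miR-15a, also at 0.79. Among 313 other miRNAs averaging at least 100 reads, mmu-miR-101a (r = 0.96) and mmu-miR-101b (0.93) were most like mmu-miR-15a, mmu-miR-132 (0.82) and mmu-miR-221* (0.80) most like mmu-miR-15b, and mmu-miR-153 (0.84) and mmu-miR-379* (0.82) most like mmu-miR-16. For mmu-miR-195 these were mmu-let-7i (0.90) and mmu-miR-34c* (0.80), for mmu-miR-322 mmu-let-7g (0.93) and mmu-miR-153 (0.91), and for mmu-miR-497 mmu-let-7f-2* (0.96) and mmu-miR-25 (0.95). mmu-miR-153 was thus near both mmu-miR-16 and mmu-miR-322, members from different chromosomes.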

How the data were processed

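Inserts of 19 to 26 nt were mapped by the authors to NCBI37/mm9 with Bowtie, inside ncPRO-seq. The submitters' processing notes also name CASAVA 1.7.0 and bedtools. What the authors deposited for a mature locus is a percent of all miRNA reads in its library. Mismatch settings and the miRBase release are not given in the sources used here. The study's methods speak of uniquely mapping reads. In the deposited values, however, loci with the same sequence each carry all or nearly all of its reads. They were averaged (806 loci, 756 sequences), and percentages were written as RPM. Reads were recovered from the spacing of low values, of which 100% came out whole within 0.1 read. The authors also deposited tables of group comparisons whose signal columns hold reads divided by size factors. These gave the names, 599 sequences by name and reads and 61 by reads alone. Their group means were set against the libraries, and their fold changes and p-values were not used. Of their per-library columns, 2 were left unused.

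Levels were tested with limma (lmFit, contrasts and eBayes with trend) on log2(RPM + 0.5), with Benjamini-Hochberg adjustment over the 476 miRNAs whose reads averaged at least 10. A fold change on this scale understates that of low miRNAs. The study names a Wilcoxon test, which cannot pass the threshold with 1 to 3 libraries a group. For the non-trained libraries the log2 ratio has a 95% interval from the exact binomial distribution of its reads. Alternatives were TMM, DESeq2 size factors, edgeR and DESeq2 tests on recovered reads, other pseudocounts and minimums, leaving out each library, genotype as a covariate, only the trained groups, and the grouping of the authors' tables. The text names the members, their opposite arms, the X-linked neighbours of mmu-miR-322, miRNAs with AGCAGC from base 1 or 2, marker lists and the 2 most alike miRNAs by Pearson's r. Members and lists were chosen with earlier results of these data known. Mature sequences are RefSeq's (GRCm38.p6) and equal the mm9 loci. Versions were Python 3.11.15 with pandas 2.3.3, scipy 1.17.1 and numpy 2.4.6, and R 4.3.3 with DESeq2 1.42.0, limma 3.58.1 and edgeR 4.0.16.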

Additional observations from a re-analysis of the deposited data

Results flagged for a closer look

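mmu-miR-322 and mmu-miR-15a moved in opposite directions with training in every library of the 2 genotypes, lower in all 3 trained control libraries than in the non-trained control and higher in both trained NIPP1* libraries than in the non-trained NIPP1* library. Of all miRNAs tested, 13.4% had this pattern. The summed oligodendrocyte markers had it too, at 5458 RPM in library 1 and 3263 to 3704 RPM in trained controls. In NIPP1* mice that sum was 4397 RPM in library 2 and 4670 to 5060 RPM in the trained libraries. It was mostly mmu-miR-338-3p, and the markers mmu-miR-219-3p and mmu-miR-338-5p did not have the pattern. The part of these markers in the values of the 2 members was not tested. The difference of the training effect, NIPP1* minus control, was 0.72 on the log2 scale for mmu-miR-322 and 0.45 for mmu-miR-15a, with limma adjusted p of 0.577 and 0.746, so neither passed the test of the difference. Over the alternatives the adjusted p lay between 0.156 and 0.997 for mmu-miR-322 and between 0.251 and 0.997 for mmu-miR-15a. With libraries 3 to 5 and 6 and 7 exchanged between the genotypes they were 0.14 and -0.098. The non-trained groups have 1 library each.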

How the results depend on the processing

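No member and no miRNA of the lists named here was called in any comparison under any alternative. The lowest adjusted p of a member was 0.155, for mmu-miR-15a between trained NIPP1* and trained control mice without the first trained control library. Over all miRNAs, DESeq2's Wald test called 1 for training in controls, 1 between the trained genotypes, 2 for training in NIPP1* mice, 1 for the pooled comparison and 2 for the difference of the training effect, where limma called 0. When the minimum was lowered to 10 reads, 14 miRNAs in place of 3 passed a log2 ratio of 1 between the non-trained libraries. Of 480 fold changes and ratios of members under alternatives, 50 changed sign, none of them called. Between the trained genotypes, exchanging the trained libraries turns every sign by construction. For the other changes of sign the cause was not tested. Counts of members whose groups do not overlap were compared across scalings after the data were seen.

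With libraries 3 to 5 and 6 and 7 exchanged between the genotypes, the log2 fold changes between the trained genotypes were -0.29 for mmu-miR-322, -0.27 for mmu-miR-15a, -0.24 for mmu-miR-16, -0.061 for mmu-miR-497 and mmu-miR-15b, and -0.023 for mmu-miR-195. Training in controls then gave 0.0096 for mmu-miR-15a and 0.034 for mmu-miR-322, training in NIPP1* mice -0.088 for mmu-miR-15a and -0.0068 for mmu-miR-195, and the difference of the training effect -0.17 for mmu-miR-16, -0.098 for mmu-miR-15a, -0.078 for mmu-miR-497 and -0.044 for mmu-miR-195. With TMM scaling, the trained genotypes differed by -0.052 for mmu-miR-195, -0.013 for mmu-miR-15b and -0.014 for mmu-miR-497, and the training effects by -0.067 for mmu-miR-195 and -0.024 for mmu-miR-497. edgeR gave -0.053 for mmu-miR-195, -0.019 for mmu-miR-497 and -0.0063 for mmu-miR-15b between the trained genotypes, and -0.067 for mmu-miR-195 and -0.029 for mmu-miR-497 in the training effects. DESeq2 size factors gave -0.030 for mmu-miR-195 between the trained genotypes, -0.053 for mmu-miR-195 and -0.010 for mmu-miR-497 in the training effects, and 0.0053 for mmu-miR-15a in the pooled comparison; the Wald test gave -0.031, -0.054, -0.016 and 0.0093 for these.

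Leaving out 1 library in turn, the trained genotypes differed by -0.082 to 0.20 for mmu-miR-15b, -0.071 to 0.12 for mmu-miR-195 and -0.019 to 0.12 for mmu-miR-497. The training effect differed by -0.16 to 0.12 for mmu-miR-15b, -0.092 to 0.096 for mmu-miR-195 and -0.035 to 0.11 for mmu-miR-497. Training in NIPP1* mice gave -0.074 to 0.21 for mmu-miR-15b and -0.078 to 0.11 for mmu-miR-195, and training in controls -0.012 to 0.091 for mmu-miR-16 and -0.029 to 0.081 for mmu-miR-195. The pooled comparison gave -0.16 to 0.022 for mmu-miR-15a, -0.014 to 0.049 for mmu-miR-195 and -0.14 to 0.29 for mmu-miR-322, the lowest without library 2. A library left alone in its group was taken to vary like the others.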
